A study of Homo sapiens with 21 samples.

Results

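HMLE, an immortalized epithelial cell line from human breast, was compared after 20 and after 10 days of treatment with TGFβ (d20 and d10), with 3 libraries on each day. These 6 libraries belong to a time course of 21 RNA-seq libraries, 3 each from untreated cells (d0) and from cells at d1, d4, d7, d10, d15 and d20 of TGFβ. Every gene with a mean of at least 10 normalised reads over the 6 libraries was compared, which left 13128 of the 23201 gene symbols in the table. The cells of each timepoint had been plated at 1 starting density, and the study calls the libraries biological triplicates. The p-values here thus measure the spread between 3 libraries a day of 1 line. Between libraries of a day, the chi-square per degree of freedom was 1.41 to 1.78 at d10 and 1.37 to 2.3 at d20. Read sampling alone would give about 1, so this spread was small. How independent the cultures were was not tested. All 6 libraries came from TGFβ-treated cells and untreated cells were sequenced as d0, so 10 more days of TGFβ and 10 more days in culture cannot be told apart.

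TGFβ is a secreted cytokine that binds paired serine/threonine kinase receptors and acts through SMAD transcription factors. In epithelial cells it induces epithelial-mesenchymal transition (EMT), in which ZEB, SNAI and TWIST factors repress junction genes such as the E-cadherin gene CDH1, and cells begin to express N-cadherin, vimentin and fibronectin. TGFβ is also a main inducer of collagen and other matrix genes in fibroblasts, and it slows the cell cycle of many epithelial cells through CDK inhibitors. A comparison of d20 with d10 asks what still changed after the transition had begun, between a pair of days on which cell-cycle genes were expressed at high levels.

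A normalised read count is the number of reads of a gene divided by a size factor of its library. The 6 libraries held between 19935676 and 22245237 reads, and their size factors lay between 0.943 and 1.029. FN1, the fibronectin gene, alone took 2.16% to 2.58% of the reads of a library. The keratins, integrins and other genes that mark basal mammary epithelium were detected on both days, and all 10 markers passed the filter on low values. Their summed level was 326509 to 333899 normalised reads at d10 and 374632 to 383981 at d20. The sum rests largely on KRT17 (mean 13305 and 48718) and KRT14 (68590 and 91697). Of the 10 markers, 5 were higher at d20 and 4 lower, with a median log2 difference of 0.03. Among the luminal markers, PGR, ELF5, KIT and ANKRD30A had at most 3 reads in each of the 6 libraries. The same was true of CDH5, CLDN5 and EMCN of endothelium, of PTPRC, CD3E, CD3D, MS4A1 and HBB of blood and of LEP, CIDEC and LPL of fat. The luminal markers together summed to 2867 to 2872 normalised reads at d10 and 3410 to 3640 at d20. The blood markers summed to 763 to 905 at d10 and 1064 to 1137 at d20, where 1 of 3 tested, the lysosomal CD68, was higher (0.77 ± 0.06). The fat markers summed to 109.8 to 120.3 and 193 to 219, and both tested, PLIN4 (1.88 ± 0.19) and FABP4 (0.52 ± 0.12), were higher. Their part in the results below was not tested.

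Differences between the days were tested with limma on log2(value + 1), and each log2 difference is d20 minus d10 with its standard error. With the adjusted p held under 0.05 and a 2-fold minimum, 396 genes were higher at d20 (3.02% of those tested) and 60 were lower (0.457%). The change was uneven, since 86.8% of the called genes were higher, and the share was 68.1% with quantile normalization, which called 262 genes higher and 123 lower. Without a minimum size, 3522 genes were higher (26.8%) and 4047 lower (30.8%), and which direction had more genes depended on the scaling, with 3949 higher and 3539 lower after rescaling to equal totals and 3785 and 3744 with edgeR. At a log2 difference of at least 2, 43 genes had risen and 1 had fallen, and at a difference of at least 3, 6 had risen and none had fallen. The median over all genes tested was -0.015. List counts below have no minimum size and stand beside the shares of 26.8% higher and 30.8% lower. Of the 396 genes, 87 had a mean under 10 at d10 and passed the filter only through d20, as did 21 of the 60 only through d10. Among the genes named below, CADM3, HEYL, PTGIR, ANKRD1, CDKN1C, EGR2, IFI44L, IFI27, XAF1, CXCL14, LCN2, RTN1 and IGFL2 had such a mean at d10. The values given for them are a description. In bulk RNA, a change in the share of cells of 1 kind and a change of RNA per cell cannot be told apart, and this holds for each gene below.

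**Figure D1:**
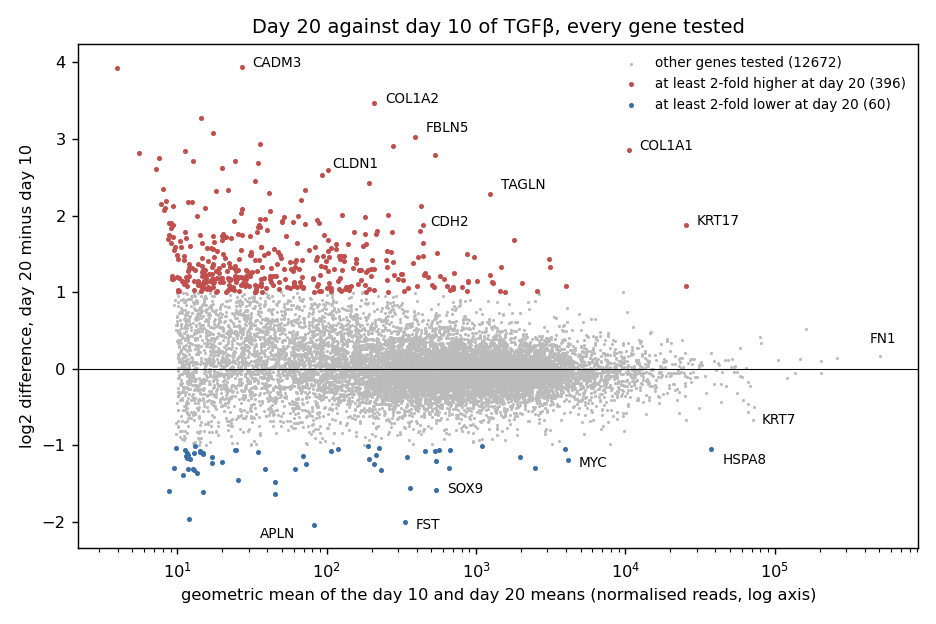
Each point is 1 of the 13128 genes, with the geometric mean of its d10 and d20 means on the horizontal log axis (normalised reads) and the log2 difference, d20 minus d10, on the vertical axis. The 396 genes called higher (red) reach a difference of 3.94 for CADM3, while the 60 called lower (blue) end at -2.04 for APLN.

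Matrix genes, collagens among them, were found among the largest increases. COL1A1 and COL1A2 encode the chains of type I collagen, the main fibre of connective tissue. COL1A1 had 3791, 4089 and 3829 normalised reads in the 3 d10 libraries and 29587, 27336 and 27776 at d20. Each d20 library was more than 6 times above each d10 library, and the log2 difference was 2.85 ± 0.03 (adjusted p = 1.79e-44). COL1A2 had 72.7, 69.0 and 46.0 reads at d10 and 748, 699.9 and 625 at d20, a log2 difference of 3.47 ± 0.11 (adjusted p = 2.33e-26). COL3A1, the chain of type III collagen that is laid down with type I, had 6.97, 15.6 and 15.7 reads at d10 and 92.2, 112 and 93.0 at d20. The groups did not overlap for any of these genes, although the lowest d10 library of COL3A1 had fewer than 10 reads.

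Other chains of the interstitial matrix followed. Of 13 fibrillar and interstitial collagen genes tested, 11 rose and 1 fell, 9 of the increases were at least 2-fold, and the median log2 difference was 1.48. Type VI collagen, which forms beaded filaments around cells, rose in its chains COL6A1 (1.64 ± 0.09), COL6A2 (1.99 ± 0.15) and COL6A3 (1.48 ± 0.06). Type V collagen, which sets the diameter of type I fibrils, rose in COL5A1 (1.73 ± 0.21), COL5A2 (1.12 ± 0.03) and COL5A3 (1.47 ± 0.11). The exception was COL12A1, a collagen that sits on fibril surfaces, which fell slightly, from 4125 ± 129.6 (SD, n = 3) to 3808 ± 82.9. With all 7 timepoints in the fit COL12A1 no longer passed. COL16A1 did not pass the test (-0.03 ± 0.03, adjusted p = 0.394).

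Genes for the proteins that decorate and cross-link these fibres also changed. Of 23 genes for matricellular proteins and small proteoglycans, 15 rose, 2 fell and the median was 0.52. FBLN5, a glycoprotein that organizes elastic fibres, had 123, 154 and 130.1 reads at d10 and 1137, 1047 and 1132 at d20 (log2 difference 3.02 ± 0.07, adjusted p = 7.68e-31). BGN, the proteoglycan biglycan, which binds collagen and TGFβ, had 45.8, 40.8 and 37.2 reads at d10 and 265, 265 and 233 at d20 (2.60 ± 0.12). FBN1 and FBN2 encode fibrillins, the backbone of microfibrils that store latent TGFβ. FBN1 had 216, 231 and 243 reads at d10 and 830.0, 844 and 853 at d20 (1.87 ± 0.06), and FBN2 rose by less (1.48 ± 0.12). In each of these 4 genes the lowest d20 library lay above the highest d10 library. LTBP2, a latent TGFβ binding protein, was 1 of the few that fell, from 4165 ± 39.7 (SD, n = 3) to 3360 ± 40.2.

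Enzymes that mature collagen changed less as a group, with a median of 0.23. Of 16, 9 were higher and 2 lower, beside 26.8% and 30.8% of all genes. LOX, the lysyl oxidase that cross-links collagen and elastin, had 952, 1072 and 953 reads at d10 and 3351, 3019 and 3221 at d20 (1.69 ± 0.04, adjusted p = 2.87e-30), with no overlap. Its relative LOXL1 (0.82 ± 0.10) and the prolyl hydroxylase subunit P4HA3 (0.74 ± 0.08) rose too. The lysyl hydroxylase PLOD3 (-0.25 ± 0.03) and LOXL3 (-0.32 ± 0.13) fell. CREB3L1, a membrane-bound transcription factor of the secretory pathway that activates type I collagen genes in bone, had 86.6, 73.9 and 89.0 reads at d10 and 459, 424 and 464 at d20 (2.42 ± 0.09). The general chaperones of the endoplasmic reticulum did not rise with it. Of 25 genes for folding and secretion, 10 rose and 12 fell, beside 26.8% and 30.8% of all genes. HSPA5, the main chaperone of the endoplasmic reticulum, fell (-0.25 ± 0.02).

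The basement membrane gave a mixed picture. Its genes numbered 18, of which 11 rose and 4 fell, beside 26.8% and 30.8% of all genes. COL4A1, a chain of the type IV network, had 12501 ± 150.4 reads (SD, n = 3) at d10 and 17400 ± 303 at d20, and the laminin chains LAMB1 and LAMB2 also rose. LAMA3 and LAMB3, which encode chains of laminin-332, the laminin of epithelial anchorage, fell. LAMA3 had 84784, 88274 and 83790 reads at d10 and 60662, 58986 and 61913 at d20 (-0.50 ± 0.02, adjusted p = 8.18e-22). COL17A1, the transmembrane collagen that ties basal cells to laminin-332, fell with it, from 37470, 37845 and 36716 reads to 25634, 26134 and 26734 (-0.51 ± 0.02). The integrin subunit ITGA6, which pairs with ITGB4 in the same anchoring structure, fell as well (-0.41 ± 0.02), while ITGB4 was slightly higher (0.11 ± 0.02).

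Receptors for matrix were about evenly split. Of 14 integrin subunit genes, 6 rose and 5 fell, beside 26.8% and 30.8% of all genes. ITGA2, a collagen receptor subunit of epithelia, had 5021, 4799 and 5059 reads at d10 and 2482, 2663 and 2585 at d20 (-0.94 ± 0.03, adjusted p = 4.61e-26). ITGB6, the epithelial partner of ITGAV in a receptor that frees latent TGFβ, also fell (-0.65 ± 0.03), whereas ITGAV itself rose (0.43 ± 0.03), as did the fibronectin receptor subunit ITGA5 (0.36 ± 0.03). Among 18 genes for matrix proteases and their inhibitors, 9 rose and 4 fell. MMP2, a gelatinase, had 880.2 ± 27.4 reads (SD, n = 3) at d10 and 1920 ± 20.9 at d20, and its inhibitor and activator cofactor TIMP2 had 585 ± 20.2 and 1605 ± 34.5. PLAU, the urokinase that activates plasminogen, fell from 11980 ± 61.9 to 7833 ± 373.

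**Figure D2:**
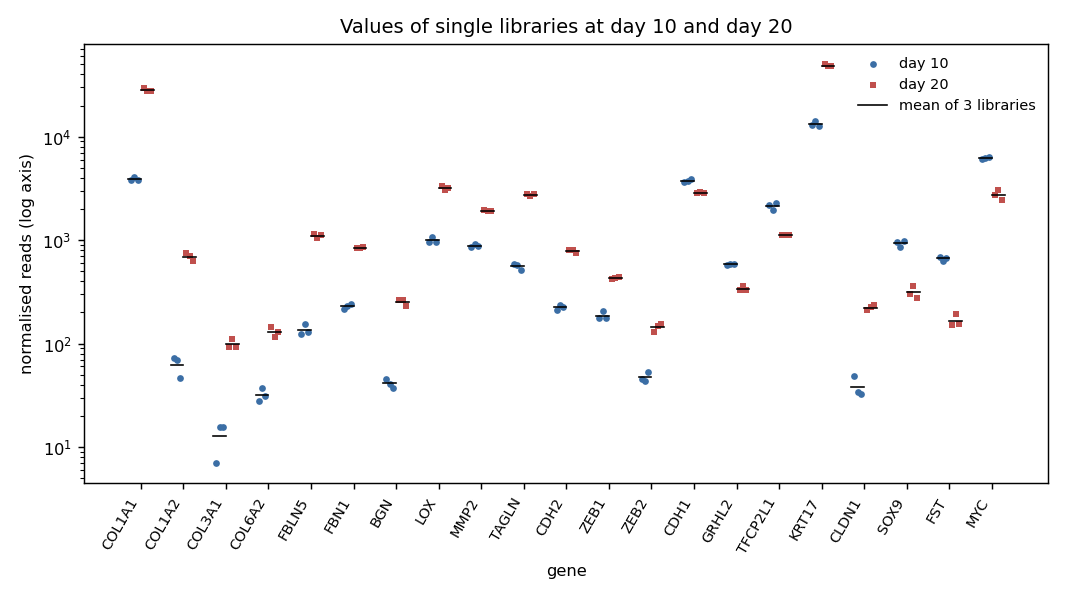
Normalised reads (log axis) of 21 genes in each of the 3 d10 libraries (blue circles) and 3 d20 libraries (red squares), with a line at the mean of each group. The libraries of the days lie apart for all 21, with matrix and mesenchymal genes such as COL1A1 and CDH2 higher at d20 and CDH1, GRHL2, TFCP2L1, SOX9, FST and MYC lower. The 21 genes were picked after their values were seen, so this separation is a description.

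Contractile genes moved in the same direction as the collagens. Of 22 smooth muscle and actin cytoskeleton genes, 15 rose and 1, CNN3, fell, with a median of 0.24. TAGLN, an actin-binding protein of smooth muscle, had 593, 579 and 518 reads at d10 and 2776, 2652 and 2764 at d20 (2.28 ± 0.04, adjusted p = 1.03e-33). The d20 libraries were all at least 4 times above the d10 libraries. MYL9, a myosin light chain, had 123, 126 and 130.1 and 323, 287 and 329 reads (1.30 ± 0.09). ACTA2, smooth muscle actin and the usual marker of myofibroblasts, rose by less (0.38 ± 0.07), and the gene for the non-muscle cross-linker ACTN1 did not pass (0.02 ± 0.02, adjusted p = 0.408). PDGFRB, the PDGF receptor of pericytes and fibroblasts, had 18.3 ± 4.08 reads (SD, n = 3) at d10 and 92.5 ± 8.52 at d20 (2.29 ± 0.19).

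The genes that define EMT itself changed unequally. Of 8 mesenchymal hallmark genes, 5 rose, 2 fell and 1 did not pass. Over all genes, 26.8% were higher and 30.8% lower. CDH2, N-cadherin, had 211, 234 and 228 reads at d10 and 797, 798 and 751 at d20 (1.80 ± 0.06, adjusted p = 5.28e-25). The repressors ZEB1 and ZEB2 rose with it. ZEB1 had 175, 204 and 175 reads at d10 and 423, 435 and 442 at d20 (1.23 ± 0.08), and ZEB2 had 45.8, 43.7 and 52.8 and 129, 149 and 155 (1.59 ± 0.13). No library of d10 reached any library of d20 for these 3 genes. VIM (0.27 ± 0.02) and FN1 (0.17 ± 0.02) rose by much less, and the increase of FN1 was 0.0 with quantile normalization. SNAI2 (-0.22 ± 0.03) and TWIST2 (-0.51 ± 0.10) fell, and TWIST1 did not pass (0.17 ± 0.09, adjusted p = 0.0925).

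Of a wider list of 14 EMT transcription factors, 4 were higher and 6 lower, beside 26.8% and 30.8% of all genes. SOX9, a factor of progenitor cells in breast and of cartilage, fell most. It had 954, 848 and 983 reads at d10 and 298, 359.9 and 277 at d20 (-1.58 ± 0.07, adjusted p = 6.33e-22), and its 3 d20 libraries were all below the lowest d10 library. FOXC2 rose (0.54 ± 0.17), although not past the threshold with quantile normalization, and FOXC1 fell (-0.48 ± 0.09).

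Epithelial genes did not move as a block. Of 7 epithelial hallmark genes, 4 fell, 2 rose and 1 did not pass. Over all genes, 30.8% were lower and 26.8% higher. CDH1 had 3618, 3689 and 3855 reads at d10 and 2838, 2910 and 2857 at d20 (-0.37 ± 0.03, adjusted p = 1.14e-13), with no overlap between the days. The splicing regulators ESRP1 (-0.31 ± 0.03) and ESRP2 (-0.23 ± 0.05), which keep epithelial isoforms, and the repressor OVOL2 (-0.76 ± 0.15) fell. OVOL1 went the other way, with 22.9, 34.0 and 23.5 reads at d10 and 73.1, 70.5 and 58.8 at d20 (1.32 ± 0.19), as did the mucin MUC1 (1.06 ± 0.24). OCLN, occludin, did not pass (0.12 ± 0.16, adjusted p = 0.524) and its groups overlapped.

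Among 14 transcription factors of epithelial identity, 4 fell and 5 rose, beside 30.8% and 26.8% of all genes. GRHL2, an activator of CDH1 and other junction genes, had 579, 584 and 593 reads at d10 and 329, 359 and 332 at d20 (-0.78 ± 0.06, adjusted p = 2.84e-14). TFCP2L1, of the same family, had 2204, 1958 and 2289 and 1125, 1111 and 1131 (-0.93 ± 0.04). Both were lower in every d20 library. TP63, the master regulator of basal cells, fell slightly (-0.11 ± 0.03), and KLF4, a factor of barrier differentiation, rose (0.41 ± 0.06).

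CLDN1, a claudin that seals tight junctions, had the largest change among junction genes, with 48.8, 34.0 and 32.3 reads at d10 and 209.9, 223 and 234 at d20 (2.53 ± 0.14, adjusted p = 8.05e-19). Of 15 tight junction genes 3 rose and 6 fell, beside 26.8% and 30.8% of all genes, among them MARVELD2, tricellulin, with 280.3 ± 13.9 reads (SD, n = 3) at d10 and 163 ± 3.68 at d20. Desmosome genes divided into 5 higher and 4 lower of 11. The plakins PPL (0.83 ± 0.05) and EVPL (0.52 ± 0.12), which join desmosomes to keratin in the cell envelope, rose, and the plakophilins PKP3 (-0.58 ± 0.04) and PKP2 (-0.33 ± 0.05) fell. Of 16 epithelial surface proteins and proteases, 9 fell and 3 rose. LSR, a receptor at tricellular junctions, fell (-0.51 ± 0.04), as did the epithelial adhesion gene EPCAM (-0.17 ± 0.06) and CD24 (-0.41 ± 0.05), the latter not past the threshold with all 7 timepoints in the fit.

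Keratins, the intermediate filaments of epithelia, changed in both directions. KRT17, a keratin of basal cells and of wounded epidermis, had 13034, 14213 and 12669 reads at d10 and 50468, 47899 and 47786 at d20 (1.87 ± 0.03, adjusted p = 6.08e-38). KRT16, which activated keratinocytes also express, had 868 ± 71.3 (SD, n = 3) and 1894 ± 38.2, and KRT14 rose by less (0.42 ± 0.02). Reads of KRT14, KRT16 and KRT17 can be shared between these near-identical genes and their pseudogenes, so the division among them is uncertain. KRT6B fell (-0.92 ± 0.10), with the same reservation for the KRT6 family. KRT7 and KRT18, keratins of simple epithelium, fell, KRT7 from 92798, 85612 and 90072 reads to 57063, 56384 and 54962 (-0.67 ± 0.02) and KRT18 by less (-0.57 ± 0.03). KRT8, the usual partner of KRT18, rose instead, from 4988 ± 91.4 (SD, n = 3) to 7818 ± 248.

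Among genes of the cell cycle, those of DNA replication fell while those of mitosis rose. MCM10, a replication initiation factor, had 1101, 1017 and 1077 reads at d10 and 615, 666 and 648 at d20 (-0.73 ± 0.05, adjusted p = 2.51e-16). E2F1, the transcription factor that drives entry into S phase, had 734, 712 and 734 and 451, 484 and 439 (-0.67 ± 0.05). Of 26 replication and S phase genes, 22 fell, 1 (TYMS, thymidylate synthase) rose and 3 did not pass, with a median of -0.38. The genes of all 6 subunits of the MCM helicase were among those that fell, from MCM3 (-0.56 ± 0.03) to MCM5 (-0.28 ± 0.03). Cyclin E genes fell too, CCNE1 from 151 ± 7.84 (SD, n = 3) to 83.9 ± 6.11 and CCNE2 by a log2 difference of -0.77 ± 0.08.

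The mitotic genes changed by less and in the opposite direction. Of 28 mitosis and G2/M genes, 23 rose, none fell and 5 did not pass, with a median of 0.17 and no 2-fold change. With all 7 timepoints in the fit, which takes the spread of the other days into account, 12 of them were higher and none lower. TOP2A, the topoisomerase that separates chromatids, had 12188, 12694 and 12144 reads at d10 and 16703, 16846 and 17507 at d20 (0.46 ± 0.02, adjusted p = 1.49e-19). CCNB2, a cyclin of mitotic entry, had 2587, 2733 and 2649 and 3467, 3467 and 3565 (0.40 ± 0.03), and the d20 libraries lay above the d10 libraries for both genes. CDK1, the kinase it activates, did not pass (0.02 ± 0.03, adjusted p = 0.59). MKI67, the proliferation marker Ki-67, rose slightly (0.10 ± 0.03).

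**Figure D3:**
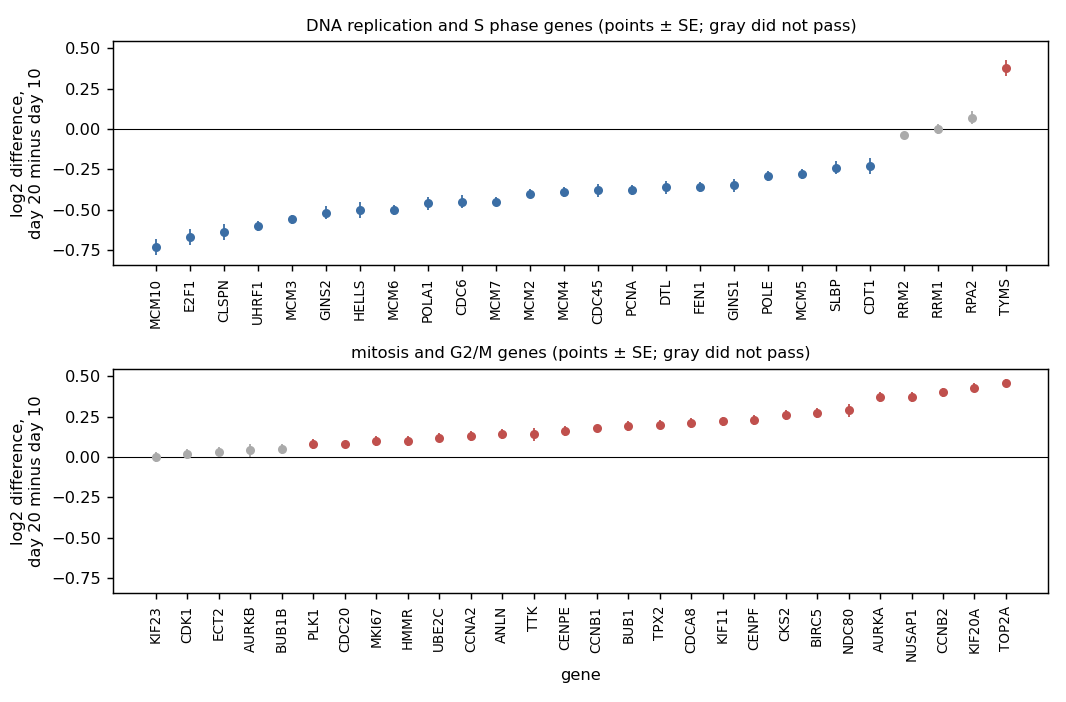
Log2 difference, d20 minus d10, with its standard error for each of the 26 replication and S phase genes (upper panel) and 28 mitosis and G2/M genes (lower panel), with genes that did not pass the test in gray. The replication genes lie below 0 with the exception of TYMS and 3 that did not pass, and the mitotic genes lie at or above 0, up to 0.46 for TOP2A.

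Mitotic genes share promoter elements, the cell cycle homology region (CHR, searched as TTTGAA) and the CCAAT box, which bind the DREAM and NF-Y complexes. In RefSeq promoter windows (GRCh38.p14), searched over 250 bases before the gene start on both strands, 14 of the 23 mitotic genes with a window held TTTGAA (60.9%) and 19 held CCAAT (82.6%). The shares among all 27305 promoter windows were 16.1% and 37%. These sets were chosen after the data were seen, and a match describes the letters, not binding. The windows below show 5 of them, 60 bases each, 5′ to 3′ on the gene's strand, with each TTTGAA or its reverse complement in capitals. They are CCNB2, TOP2A and CKS2, which rose by more than the median of the list, and HMMR and MKI67, which rose by less. TOP2A, HMMR and MKI67 held 2 matches each in their 250 bases. CDK1 (0.02), KIF23 (0.0), BUB1B (0.05) and ECT2 (0.03), which did not pass the test, also held matches in their windows.
CCNB2, chr15:59105086-59105145, plus strand: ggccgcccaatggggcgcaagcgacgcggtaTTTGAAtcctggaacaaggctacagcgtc
TOP2A, chr17:40418013-40418072, minus strand: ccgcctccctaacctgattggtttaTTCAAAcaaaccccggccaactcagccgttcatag
CKS2, chr9:89311135-89311194, plus strand: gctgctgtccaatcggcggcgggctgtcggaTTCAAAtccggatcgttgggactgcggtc
HMMR, chr5:163460572-163460631, plus strand: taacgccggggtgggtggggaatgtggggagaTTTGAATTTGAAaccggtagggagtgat
MKI67, chr10:128126424-128126483, minus strand: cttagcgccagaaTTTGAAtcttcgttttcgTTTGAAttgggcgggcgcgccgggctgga

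Of 17 CDK inhibitor, cyclin and senescence genes, 10 rose and 7 fell, beside 26.8% and 30.8% of all genes, with a median of 0.22. CDKN1A, the p21 inhibitor that both p53 and SMADs induce, had 2642, 2903 and 2682 reads at d10 and 6418, 5529 and 5456 at d20 (1.08 ± 0.04, adjusted p = 1.85e-24). CDKN1C, the related p57, had 8.96, 12.6 and 6.84 and 55.1, 53.7 and 43.1 reads (2.33 ± 0.25), so its d10 values were close to the limit of detection. CDKN2B, p15, a further TGFβ-induced inhibitor, rose too (0.77 ± 0.05). The members that fell were cyclins and kinases of G1, such as CCND1 (-0.48 ± 0.03) and CDK6 (-0.47 ± 0.03). Of 23 p53 target genes, 19 rose and 1, AEN, fell, with a median of 0.52. TP53INP1, a stress-induced gene of autophagy and cell death, had 125, 145 and 113 reads at d10 and 528, 490.4 and 518 at d20 (2.00 ± 0.08). BTG2, an antiproliferative gene, had 217, 201 and 182 and 476, 424 and 458 (1.18 ± 0.08), and GDF15, a secreted stress cytokine of the TGFβ family, had 26.9, 26.2 and 23.5 and 117, 91.6 and 105 (1.98 ± 0.16).

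Of the 20 AP-1 and immediate early genes, 10 fell and 8 rose, beside 30.8% and 26.8% of all genes. The median was -0.12, and MYC fell most. MYC, the growth-promoting transcription factor that TGFβ represses in many epithelial cells, had 6145, 6199 and 6319 reads at d10 and 2727, 3045 and 2430 at d20 (-1.19 ± 0.04, adjusted p = 3.18e-25). Each d20 library had fewer than 1 read for every 2 in the lowest d10 library. DUSP6 and DUSP4, phosphatases that ERK induces and that switch it off, had 2920 ± 89.3 (SD, n = 3) and 1551 ± 31.4 reads at d10 and 1324 ± 162 and 770.1 ± 50.6 at d20. The Sprouty genes SPRY1 (-0.82 ± 0.28), SPRY2 (-0.83 ± 0.07) and SPRY4 (-0.55 ± 0.04), inhibitors of receptor tyrosine kinases, and FOSL1 (-0.77 ± 0.05) and EGR1 (-0.44 ± 0.06), targets of the same pathway, fell as well. ERRFI1, a feedback inhibitor of the EGF receptor, rose (0.34 ± 0.03), as did the phosphatase gene DUSP1 (0.80 ± 0.08). ATF3, a stress-response factor, rose too, with 109, 135 and 129 reads at d10 and 257, 263 and 275 at d20. EGR2 was also among the members that rose, with a mean under 10 at d10. The log2 differences of the list ran from -1.19 to 2.75, with 3 members at least 2-fold higher and 3 at least 2-fold lower.

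Interferon-stimulated genes, which cells switch on through STAT2 and IRF9, among other factors, to resist viruses, were higher at d20 than at d10. Of 29 tested, 25 rose, 1 (IFIT5) fell and 3 did not pass, with a median of 0.56, and 7 reached 2-fold. Of the 25, 3 (IFI27, IFI44L and XAF1) had a mean under 10 at d10 and passed the filter only through d20. With all 7 timepoints in the fit, 14 of them were higher and none lower, and the small decrease of IFIT5 did not pass with edgeR or DESeq2 either. IFIT1, which binds viral RNA, had 64.7, 67.1 and 59.7 reads at d10 and 116, 147 and 128 at d20 (1.01 ± 0.13, adjusted p = 1.03e-08). IFITM2, which blocks virus entry, had 128, 133 and 126 and 242, 265 and 274 (1.00 ± 0.09), and IFI44 had 232, 214 and 204 and 354, 365 and 369 (0.74 ± 0.07). All 3 were higher in every d20 library. STAT2 (0.53 ± 0.05) and IRF9 (0.42 ± 0.07) rose. The mean log2 level of the list was 7.39 to 7.45 at d0, 6.76 to 6.93 at d10 and 7.37 to 7.51 at d20. The d20 level thus lay near that of untreated cells, and d10 was the lowest of the 7 timepoints.

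Interferon responses run through the interferon-stimulated response element (ISRE), which was searched as GAAANNGAA. In the same 250 bases, 16 of the 21 interferon-stimulated genes with a window held this element (76.2%), against 8.41% of all promoter windows, and 1 of 23 mitotic genes did (4.35%). The windows below are given for genes of large and small change, with the element or its reverse complement in capitals, and their matches lie between 35 and 124 bases before the gene start for the copy nearest to it. They show IFIT1 (1.01), BST2 (1.19), IFI44L (1.37), ISG15 (0.56), IFITM3 (0.33) and IFI27 (0.91), all of which were higher at d20.
IFIT1, chr10:89392496-89392555, plus strand: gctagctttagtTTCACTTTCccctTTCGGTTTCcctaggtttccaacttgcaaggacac
BST2, chr19:17405720-17405779, minus strand: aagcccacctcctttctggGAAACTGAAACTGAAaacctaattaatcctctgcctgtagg
IFI44L, chr1:78620350-78620409, plus strand: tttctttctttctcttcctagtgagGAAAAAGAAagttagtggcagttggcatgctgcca
ISG15, chr1:1013371-1013430, plus strand: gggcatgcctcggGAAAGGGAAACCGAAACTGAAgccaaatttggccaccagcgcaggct
IFITM3, chr11:320861-320920, minus strand: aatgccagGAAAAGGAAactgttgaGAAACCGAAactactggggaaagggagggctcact
IFI27, chr14:94110616-94110675, plus strand: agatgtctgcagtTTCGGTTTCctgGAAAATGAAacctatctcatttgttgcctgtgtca
IFIT5 (-0.18), SAMD9 (-0.07) and OAS3 (0.04), which did not rise, also held matches in their windows.

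Antigen presentation and inflammatory genes were also mostly higher. Of 15 genes of presentation by MHC class I, 13 rose and 1 fell. HLA-B had 2636, 2922 and 2627 reads at d10 and 4385, 4272 and 4336 at d20 (0.67 ± 0.03), although reads of HLA genes can be shared among them. The peptide transporter is a dimer of TAP1 and TAP2, and its subunits moved apart, TAP1 from 719 ± 50.7 (SD, n = 3) to 1122 ± 40.9 and TAP2 from 3129 ± 13.4 to 2245 ± 31.7. Of 27 cytokine, chemokine and acute phase genes, 21 rose and 1, PTGS2, fell, 12 of the increases were at least 2-fold, 2 (CXCL14 and LCN2) passed the filter only through d20, and the median was 0.96. IL8, the neutrophil chemokine now named CXCL8, had 19.9, 24.3 and 32.3 reads at d10 and 94.3, 85.3 and 114 at d20 (1.91 ± 0.18, adjusted p = 7.01e-12). CCL20 had 21.9, 27.2 and 11.7 and 63.6, 45.3 and 51.9 (1.42 ± 0.23), TNFAIP2 had 56.7, 64.1 and 36.2 and 137, 138 and 138 (1.42 ± 0.15), and NFKBIA, the inhibitor that NF-κB induces, rose (0.87 ± 0.05). IL1A and IL1B, which start many such responses, did not pass (0.04 ± 0.04 and -0.17 ± 0.12).

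Genes of the oxidative stress response rose together. Of 15 tested NRF2 targets, 13 rose and none fell, with a median of 0.62. The mean log2 level of this list was 9.75 to 9.78 at d0, 9.08 to 9.11 at d10 and 9.76 to 9.84 at d20. Its d20 level also lay near that of untreated cells. HMOX1, which degrades heme, had 235, 212 and 209 reads at d10 and 477, 483 and 501 at d20 (1.15 ± 0.07, adjusted p = 2.89e-17). AKR1C3, a ketosteroid reductase, had 193, 222 and 199.5 and 481, 479.9 and 484 (1.23 ± 0.07), and its near-identical relatives AKR1C1 (1.51 ± 0.06) and AKR1C2 (1.41 ± 0.08) rose with it, with reads that can be shared. The groups did not overlap for any of the 4. Genes of the ATF4 pathway, which answers amino acid shortage and stress of the endoplasmic reticulum, rose in 18 of 24 cases and fell in 2. CHAC1, a glutathione-degrading enzyme, had 366, 413 and 355 reads at d10 and 871, 883 and 859.8 at d20 (1.21 ± 0.06), and STC2, a secreted glycoprotein, had 1889 ± 82.3 (SD, n = 3) and 3710 ± 149.

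Heat shock genes fell. Of 14 genes, 11 fell and 2 rose, with a median of -0.35. HSPA8, the constitutive HSC70 chaperone, had 54893, 52633 and 54778 reads at d10 and 24954, 27415 and 26043 at d20 (-1.05 ± 0.02, adjusted p = 7.68e-31), and it was the most highly expressed of the 60 genes called lower. HSPH1, its nucleotide exchange factor, fell as well (-0.85 ± 0.03). The exceptions were the small heat shock proteins CRYAB, with 57.7, 56.4 and 54.8 and 164, 156 and 154 reads (1.47 ± 0.12), and HSPB1 (0.71 ± 0.04).

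Lipid synthesis fell by small amounts across its genes. Of 33 cholesterol and fatty acid synthesis genes, 27 fell, 2 rose and none changed 2-fold, with a median of -0.26. HMGCS1, an early enzyme of the mevalonate pathway, had 9015, 8982 and 8892 reads at d10 and 5149, 5151 and 5299 at d20 (-0.79 ± 0.02, adjusted p = 2.69e-26). FASN, fatty acid synthase, had 32414, 32782 and 31663 and 20995, 20192 and 19685 (-0.67 ± 0.02). The transcription factor SREBF2, which activates these genes, was slightly higher (0.15 ± 0.03). Glycolysis genes leaned the same way, with 15 of 30 lower and 7 higher, while oxidative phosphorylation subunits were split, with 10 higher and 7 lower of 39. Over all genes, 26.8% were higher and 30.8% lower. Cytosolic ribosomal protein genes, with 18 higher and 8 lower of 48, had a median of 0.04. Their count of increases depended on the scaling, with 28 after quantile normalization, 29 after rescaling to equal totals and 5 with all 7 timepoints in the fit. Lysosome genes rose in 16 of 25 cases and fell in 3, with GRN, progranulin, from 5560 ± 90.8 (SD, n = 3) to 7258 ± 169.

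**Figure D4:**
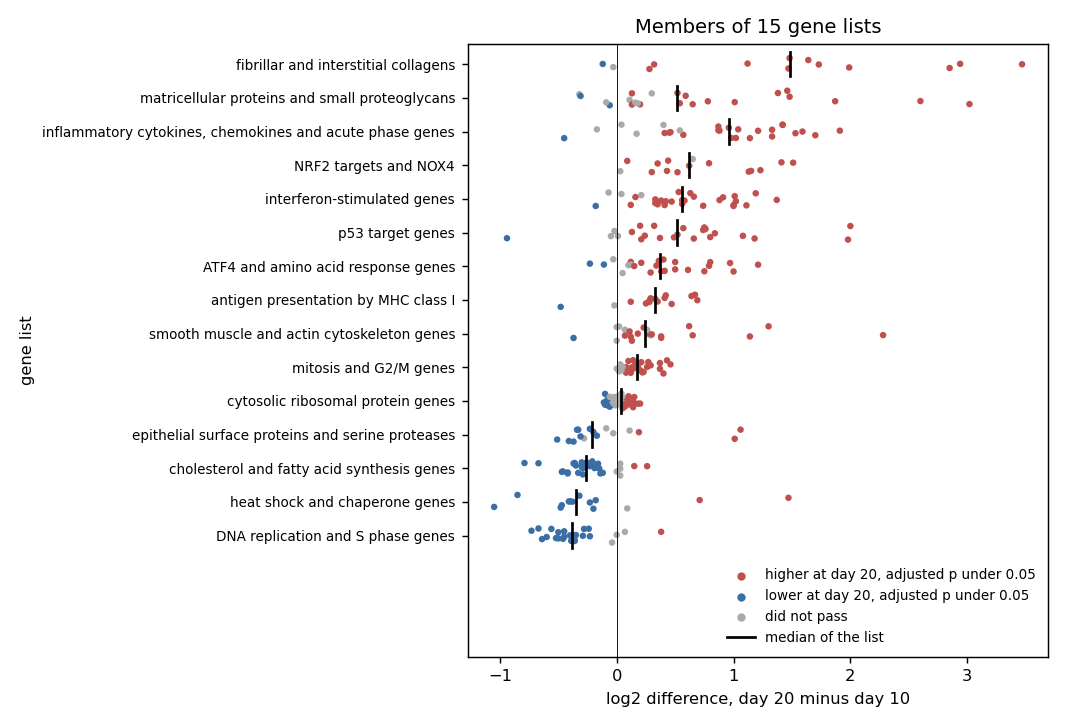
Log2 difference, d20 minus d10, of each tested member of 15 gene lists, coloured by whether it was higher (red), lower (blue) or did not pass (gray), with a black line at the median of the list. Medians run from 1.48 for the fibrillar and interstitial collagens to -0.38 for replication and S phase genes.

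Genes of TGFβ signalling were compared by their RNA alone, and the activity of the pathway was not tested. Of 14 TGFβ ligand, receptor and latency genes, 6 rose and 3 fell, beside 26.8% and 30.8% of all genes. TGFB2, 1 of the 3 TGFβ ligand genes, had 44.8, 60.3 and 63.6 reads at d10 and 153, 194 and 201 at d20 (1.69 ± 0.13, adjusted p = 6.97e-14), TGFB1 rose slightly (0.24 ± 0.04) and TGFB3 did not pass (-0.17 ± 0.30). The receptor TGFBR1 rose by little (0.22 ± 0.05) and TGFBR2 did not pass (-0.05 ± 0.03). Feedback genes that SMADs induce did not rise with the matrix. SMAD7 (-0.04 ± 0.06) and SKIL (-0.05 ± 0.05) did not pass, and PMEPA1 (-0.20 ± 0.02) and the ubiquitin ligase SMURF2 (-0.31 ± 0.04) fell.

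BMP signalling is a branch that opposes TGFβ in many cells. Of 14 genes for BMP ligands, antagonists and ID proteins, 4 rose, 4 fell and 6 did not pass. The median was 0.01, and over all genes 26.8% were higher and 30.8% lower. The larger changes included those of secreted antagonists. FST, follistatin, which traps activins and BMPs, had 693, 629.7 and 676 reads at d10 and 153, 193 and 156 at d20 (adjusted p = 1.3e-23). GREM1, which traps BMPs, went the other way, with 249.8, 246 and 253 and 799, 744 and 796 (1.64 ± 0.06). The groups were far apart for both. The ligand BMP2 fell, from 105 ± 8.33 (SD, n = 3) to 58.4 ± 10.2, and BMP6 fell too (-1.44 ± 0.24). ID1, a direct BMP target and inhibitor of differentiation factors, had 568, 574 and 512 reads at d10 and 1259, 1122 and 1098 at d20 (1.07 ± 0.05), and ID3 rose with it (0.79 ± 0.05).

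Notch is a cell-contact pathway in which ligands on 1 cell release the intracellular part of the receptor on the next. Of 13 of its genes 7 rose and 4 fell, beside 26.8% and 30.8% of all genes. NOTCH3 had 81.6, 78.7 and 75.3 reads at d10 and 232, 286 and 218 at d20 (1.62 ± 0.11, adjusted p = 4.75e-16), and NOTCH1 (0.90 ± 0.05), NOTCH2 (0.25 ± 0.03) and NOTCH4 (1.29 ± 0.09) were higher too. HEYL, a target of NOTCH3 in vascular smooth muscle, had 1.99, 8.75 and 6.84 and 56.2, 48.4 and 47.0 (3.07 ± 0.32), among the largest increases. Among the ligands, JAG2 (-0.50 ± 0.04) and DLL1 (-0.28 ± 0.06) fell and JAG1 did not pass (0.01 ± 0.03). Of the endothelial markers, TIE1 (1.76 ± 0.24) and TEK (0.83 ± 0.33) rose, and the list summed to 54.4 to 68.7 normalised reads at d10 and 92.6 to 132 at d20, with CDH5, CLDN5 and EMCN at 3 reads or fewer in all 6 libraries. Their part in the Notch values was not tested.

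Among 16 YAP/TAZ targets, 9 rose and 6 fell, with ANKRD1 at 12.9, 7.77 and 6.84 and 65.7, 56.8 and 69.5 reads (2.72 ± 0.24) and CTGF, now CCN2, at 1851, 1795 and 1828 and 3145, 2439 and 2715 (0.59 ± 0.05). The IGF carriers IGFBP3 and IGFBP4 rose, IGFBP3 from 1982 ± 64.9 (SD, n = 3) to 4999 ± 51.1 and IGFBP4 from 812 ± 34.1 to 1900 ± 74.4. WNT genes were split, with 7 higher and 7 lower of 18. Beside the YAP/TAZ and WNT counts stand 26.8% of all genes higher and 30.8% lower.

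Some of the strongest changes belonged to no single pathway. CADM3, a cell adhesion molecule of neurons, had 9.95, 3.89 and 5.87 reads at d10 and 86.9, 127 and 117 at d20 (3.94 ± 0.25). INPP5D, the SHIP1 phosphatase best known from blood cells, had 91.6, 115 and 99.7 and 778, 753 and 767 (2.90 ± 0.08). PTPRC, the pan-leukocyte gene, was at 3 reads or fewer in all 6 libraries. ABI3BP, an extracellular matrix protein, had 189, 225 and 189.7 and 1419, 1386 and 1360 (2.78 ± 0.06), and PTGIR, the prostacyclin receptor, had 6.97, 7.77 and 7.82 and 65.7, 37.9 and 53.9 (2.62 ± 0.26). RTN1 and IGFL2 were at the limit of detection of 3 reads in each d10 library, so their increases are bounds of at least 8.07-fold and at least 6.29-fold. Of the decreases, APLN, the secreted peptide apelin, had 165, 166 and 176 and 37.1, 41.1 and 43.1 reads (-2.04 ± 0.13, adjusted p = 1.26e-16). ANO1, a calcium-activated chloride channel, had 629, 593 and 633 and 218, 215 and 198 (-1.55 ± 0.07), and TFPI2, a serine protease inhibitor of the matrix, had 369, 340.1 and 379 and 147, 126 and 163 (-1.32 ± 0.09). MIR17HG, the host transcript of the miR-17-92 cluster and a MYC target, had 92.6, 85.5 and 113 and 49.8, 32.6 and 34.3 (-1.31 ± 0.16).

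Of the study's signature of basal epithelial genes, 91 passed the filter on low values. At d20 50 of these were higher than at d10 and 27 were lower, and the median was 0.12. Over all genes, 26.8% were higher and 30.8% lower. The increases of at least 2-fold, 15 in number, included BGN, TAGLN, KRT17, COL6A1 and MYL9. COL6A1 had 94.5, 114 and 102 reads at d10 and 328, 318 and 321 at d20. None of the decreases reached 2-fold, and the largest was that of ITGA2, followed by KRT6B, TINAGL1 (-0.74 ± 0.04) and the gap junction gene GJA1 (-0.62 ± 0.04).

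The place of these days in the time course differed between genes, and the values of the other days are given as a description. Of the 396 genes called higher, 112 (28.3%) had their highest mean of all 7 timepoints at d20 and 172 (43.4%) had it at d15, compared with 9.6% and 22.4% of all genes tested. The lowest mean was at d10 for 214 (54.0%) of them and at d0 for 124 (31.3%). Some matrix and mesenchymal genes had their highest mean at d20. COL1A1 stood at 6860 ± 873 (SD, n = 3) on d7, 3903 ± 162 on d10, 9317 ± 505 on d15 and 28233 ± 1193 on d20. GREM1, ZEB1 and CDH2 were highest at d20 as well, with 120.1 ± 17.5, 214 ± 20.8 and 217 ± 2.86 reads at d15. The mean log2 level of the collagen list was 8.12 to 8.27 over the d10 libraries, 8.86 to 8.91 over those of d15 and 9.61 to 9.69 over those of d20.

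Other genes were lower at d10 than on the days before and after it. KRT17 went from 136342 ± 70675 (SD, n = 3) at d7 to 13305 ± 807 at d10, then to 186677 ± 4734 on d15 and 48718 ± 1517 on d20, so its d20 level was far below those of d7 and d15. CDKN1A ran 16144 ± 9858, 2742 ± 140.2, 23196 ± 429 and 5801 ± 536 over the same days, and TP53INP1 ran 1719 ± 972, 128 ± 16.3, 2104 ± 99.5 and 512 ± 19.4. Mean LOX was 10039, 992.5, 12325 and 3197 on these days, and mean INPP5D was 3816, 102, 7125 and 766. Mean NOTCH3 was 2072, 78.5, 1281 and 246, and mean NOTCH1 was 5453, 668, 7680 and 1249. Each of these genes was lower at d20 than at d15. 1 of the d7 libraries stood apart from the other two, and the SD at d7 includes it. Replication genes showed the reverse. MCM10 had 1065 ± 42.9 reads on d10, 71.8 ± 6.05 on d15 and 643 ± 26.1 on d20, and the mean log2 level of its list was 10.99 to 11.03, 8.62 to 8.66 and 10.63 to 10.67 on those days. The mitotic list stood at 11.78 to 11.80 at d10 and 10.42 to 10.46 at d15, so both lists were lower at d15 than on either day compared. Of the 60 genes called lower, 33 (55.0%) had their highest mean at d10 and 14 (23.3%) had their lowest at d20. SOX9 and FST were lower at d15 than at d20, with 127 ± 5.71 and 116 ± 3.52, whereas MYC had 5439 ± 132 at d15 and its lowest mean at d20.

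**Figure D5:**
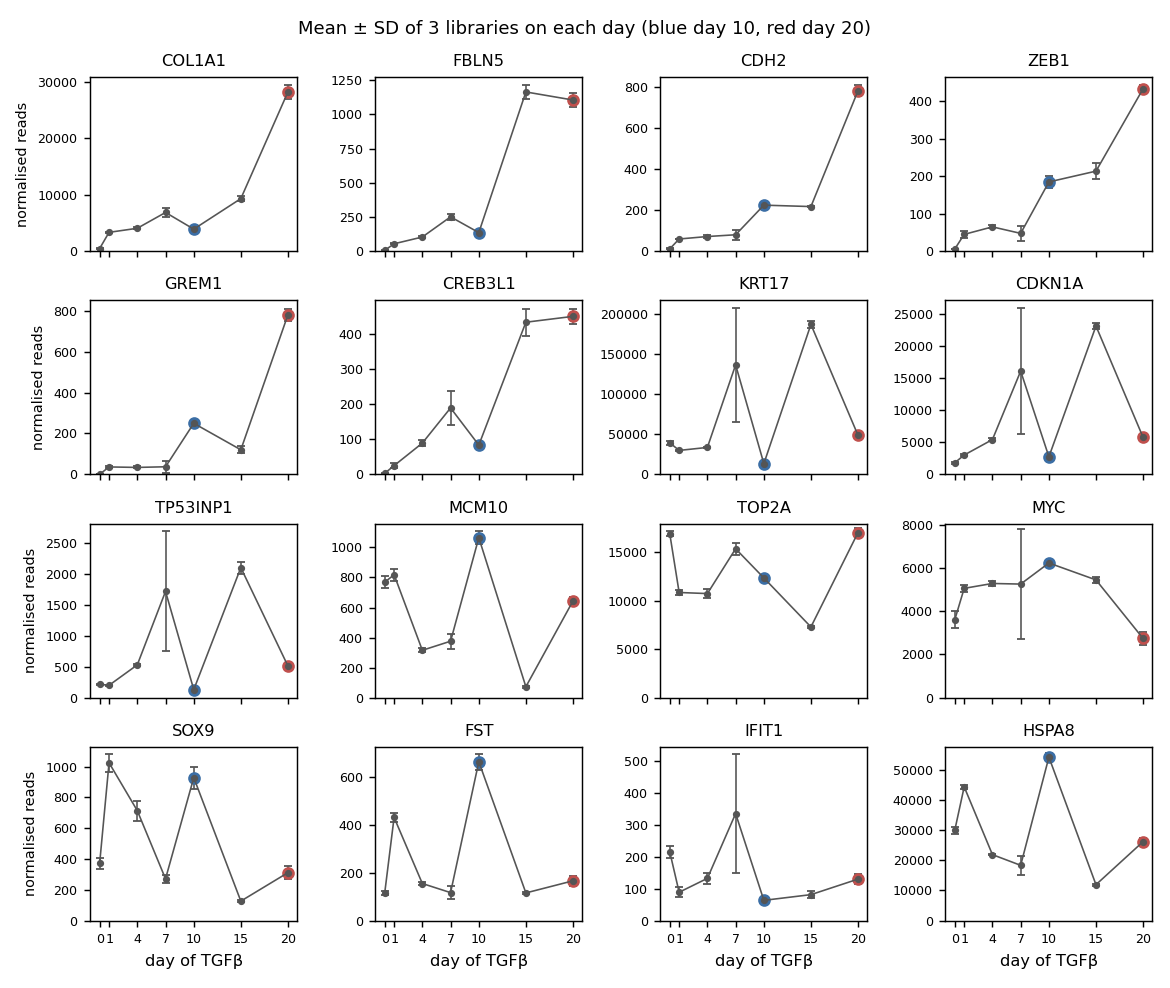
Mean normalised reads with SD over 3 libraries on each of the 7 timepoints for 16 genes, with d10 in blue, d20 in red and the vertical axis of each panel starting at 0. COL1A1, CDH2, ZEB1 and GREM1 are highest at d20, KRT17, CDKN1A and TP53INP1 at d15, and MCM10, MYC, FST and HSPA8 at d10.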

How the data were processed

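RNA-seq libraries of HMLE cells were compared, 3 at d20 and 3 at d10 of TGFβ. The authors deposited 1 table of normalised read counts, which are signal values rather than raw counts: reads per gene divided by 1 size factor per library. The submitters' processing notes name STAR 2.7, Salmon 1.4 and hg19, without saying which step each served. Multiplied back by the size factors, 100% of values came out as whole reads (tolerance 0.0051), and the 6 libraries held 19935676 to 22245237 reads. Column headings give the day but no replicate number. The members, gene lists and motif sets were chosen with earlier results of these data known.

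Genes with a mean of at least 10 over the 6 libraries were tested with limma 3.58.1 (R 4.3.3, trend) on log2(value + 1), two-sided, with Benjamini-Hochberg adjustment over 13128 genes. The pseudocount understates changes of low genes. A gene was called at an adjusted p under 0.05, with at least a 2-fold difference for the counts over all genes and without one for the lists. Named were the 12 largest changes each way and up to 4 members of each list, by size of change among those past the test with a mean of at least 50 on either day, and the 8 mesenchymal and 7 epithelial hallmark genes. Other genes are named for their role and were chosen after their values were seen. The limma, edgeR 4.0.16 and DESeq2 1.42.0 fits were tested on simulated data, the last 2 serving as alternatives on the recovered reads. Other alternatives were a pseudocount of 10, no filter, rescaling to equal totals, quantile normalization, all 7 timepoints in the fit and each library left out. Promoter windows (250 bases before the gene start) came from RefSeq GRCh38.p14, matched by symbol; no coordinates came from the deposited table. Libraries of other days entered only the fit with all 7 timepoints. Some genes are not reported here. Plots were drawn with matplotlib 3.10.9.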

Additional observations from a re-analysis of the deposited data

How the results depend on the processing

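The 396 genes higher and 60 lower at d20 became 217 and 29 with a pseudocount of 10, 262 and 123 with quantile normalization, 695 and 156 with no filter on low values, and 3522 and 4047 without a minimum difference. The other settings stayed within 1.5 times: 411 and 57 with DESeq2, 423 and 61 with edgeR, 420 and 57 after rescaling to equal totals, 388 and 56 with all 7 timepoints in the fit, and 387 to 417 and 63 to 75 with 1 library left out. The cause of the differences was not tested, other than that the filter sets how many genes enter. No paired analysis was possible because column headings name the day alone. For the named genes no direction was reversed, 2519 values kept their side of the threshold and 29 lost it, 7 of them of KLK5 and 4 of CLDN7. Of the values for lists, 1265 counts and 544 medians kept within their limits and 87 counts and 132 medians did not. The list medians that changed sign were: WNT (0.014, against -0.205 with quantile normalization and -0.059 and -0.016 without the last d10 or the last d20 library), cornified envelope (0.135 against -0.041), stem-like (0.085 against -0.052) and PDGF and FGF genes (-0.041 against 0.016) with quantile normalization, and desmosome, tight junction, EGF-like and oxidative phosphorylation genes when 1 library was left out. With 3 libraries a day, counts under about 10 reads limit precision, as for CADM3, HEYL and PTGIR at d10.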

Other observations

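Genes of ribosome biogenesis and of the nucleolus, where ribosomal RNA is made and assembled, were lower at d20. The list of 35 such genes was written after values of these data had been seen. All 35 were lower at an adjusted p under 0.05 (limma), beside 30.8% of all genes. Their median log2 difference was -0.53, with a range from -1.08 to -0.08. NPM1, nucleophosmin, had 51142, 49833 and 50355 reads at d10 and 35597, 38210 and 38723 at d20 (-0.43 ± 0.02), NCL, nucleolin, had 28010, 27331 and 28316 and 17758, 18997 and 19212 (-0.58 ± 0.02), and NOP56, a core protein of box C/D small nucleolar ribonucleoproteins, had 4778, 4577 and 4729 and 2870, 3044 and 2968 (-0.67 ± 0.03). No d20 library reached a d10 library for these 3 genes. Only WDR4 (-1.07 ± 0.06) and RRS1 (-1.06 ± 0.06) changed at least 2-fold. Of the small nucleolar RNA genes, 38 of 364 passed the filter on low values. Of the 38, 22 were lower and none higher, beside 30.8% and 26.8% of all genes, with a median of -0.64. SNORA24, SNORA67, SNORD27, SNORD28, SNORD30, SNORD49A, SNORD57, SNORD68 and SNORD81 had a mean under 10 at d20. They passed the filter only through d10, and all 6 decreases of at least 2-fold were among them. The values of these small nucleolar RNA genes are a description. These RNAs are not polyadenylated and many lie in introns of other genes, so their reads can also come from the host transcripts.

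Complement genes, which encode a secreted cascade of innate immunity and its inhibitors, were mostly higher. Of 18 in a list also written after values had been seen, 11 were tested. Of these, 9 were higher and 2 lower, beside 26.8% and 30.8% of all genes, with a median of 0.98. C1R, the first protease of the classical pathway, had 189, 242 and 182 reads at d10 and 888, 907 and 872 at d20 (2.13 ± 0.07), and its substrate C1S had 101, 117 and 134 and 418, 413 and 394 (1.80 ± 0.09). The days did not overlap for either gene. CD46 (-0.08 ± 0.03) and CD59 (-0.05 ± 0.02), inhibitors on the cell surface, were slightly lower.

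Among the remaining lists, 4 of 6 metallothioneins were lower and 2 higher, with MT1E from 9752 ± 163 (SD, n = 3) to 6028 ± 352, although reads of this family can be shared. Of 8 IGF binding and receptor genes 4 were higher and none lower, of 10 plasminogen and serpin genes 5 were higher and 3 lower, and of 14 cornified envelope genes 3 were higher and 4 lower. EGF-like ligands and ERBB receptors gave 4 higher and 2 lower of 11, PDGF, FGF and AXL genes 7 and 6 of 17, and stem-like and mesenchymal surface markers 7 and 8 of 17. The shares over all genes were 26.8% higher and 30.8% lower.

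Promoter windows of the 50 largest changes each way were searched on both strands for TGANTCA (AP-1), CAGGTG (the E-box that ZEB and SNAI factors bind) and GGAATG (TEAD). Of the 33 of the largest increases with a window, 27.3% held GGAATG, 30.3% CAGGTG and 12.1% TGANTCA, where the shares over all 27305 windows were 14.3%, 20.6% and 8.06%. Of the 28 of the largest decreases with a window, 7.14% held GGAATG, 14.3% CAGGTG and 10.7% TGANTCA. These shares rest on few genes and were not tested.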
